A study of Mus musculus with 6 samples.

Results

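Ribosome biogenesis was examined through 56 named genes that encode nucleolar processing and assembly factors of the 2 ribosomal subunits, among the 55421 genes listed in the RNA-sequencing table of WT and hnRNPL-deficient activated B cells. Members were chosen by gene symbol for their known function, with earlier results of these data known. *Wdr36* was singled out because its level was much lower in the hnRNPL-deficient cells, so its difference is given here as a description without a test. The sequenced cells were splenic B cells of *Rosa mT/mG* *CD21-cre* mice, with wild-type *Hnrnpl* (WT) or with both *Hnrnpl* alleles floxed (hnRNPL-deficient, hnRNPL F/F), cultured with 5 µg/ml LPS and 5 ng/ml IL-4 and sorted as GFP+ cells at 24 h. Each group had 3 libraries of polyadenylated RNA. All mice were C57BL6/J, male or female and older than 6 weeks, and the sex of each library's mouse is not given in the labels. *CD21-cre* acts mostly in peripheral B cells. The *Rosa mT/mG* allele turns on GFP in cells in which Cre has acted, so both groups hold only Cre-exposed B cells, controls included.

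Ribosome production starts in the nucleolus, where RNA polymerase I makes a long precursor RNA that is folded, modified, cut and packed with ribosomal proteins. The small-subunit processome, built from the UTP-A and UTP-B complexes, the U3 box C/D snoRNP and many single factors, assembles on the nascent transcript and yields the small subunit. A separate set of GTPases, helicases and scaffold proteins, among them the PeBoW complex, builds the large subunit. Activated lymphocytes raise this machinery before they divide, and MYC, which binds the E-box CACGTG, is a well known activator of its genes.

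The libraries held 40395186 to 75180749 reads on genes, with hnRNPL-deficient library 3 the shallowest. *Hnrnpl* itself, the deleted gene, had 24371, 25580 and 24174 normalized counts in WT and 2178, 1519 and 1297 in hnRNPL-deficient libraries, where a normalized count is a read count divided by the library's size factor. None of 9 B cell markers was at 0 in any library, and their summed level was 519223 to 637972 in WT and 509515 to 566596 in hnRNPL-deficient cells. Summed levels of 8 T cell markers were 942 to 1061 in WT and 659 to 899 in hnRNPL-deficient libraries, most of it *Lck* (615 to 1006). *Cd8b1* stood at 25.1 to 31.4 in WT and 4.51 to 15.1 in hnRNPL-deficient libraries. *Trac* went the other way, with 13.9 to 18.2 in WT and 21.6 to 32.9 in hnRNPL-deficient libraries. *Cd3e* and *Cd4* stayed at or under 1.80 in each library, and *Cd3d*, *Cd3g* and *Cd8a* at or under 6.92. Summed myeloid markers stood at 260 to 331 in WT and 1239 to 1382 in hnRNPL-deficient libraries, nearly all of it *Adgre1*. *Itgam* (6.05 to 18.6 in WT, 5.48 to 18.0 in hnRNPL-deficient libraries) and *Csf1r* (1.73 to 5.80 and 2.02 to 6.85) overlapped. *Lyz2*, *S100a8*, *S100a9*, *Cd14* and *Fcgr1* were at or under 2.02 in every library. Summed erythroid markers stood at 17.6 to 38.3 in WT and 55.0 to 84.8 in hnRNPL-deficient libraries. Summed plasma cell markers overlapped, at 33957 to 39571 in WT and 33298 to 36361 in hnRNPL-deficient libraries, most of it *Xbp1* and *Irf4*. *Jchain* stood at 26.0 to 117 in WT and 7.07 to 23.4 in hnRNPL-deficient libraries, while *Sdc1* and *Prdm1* overlapped. The part of these markers in the results that follow was not tested.

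The promoters of the members were read for the E-box, because the members were all lower and this motif is the classical one of the pathway. RefSeq promoter windows of GRCm38.p6, from 250 bases before to 50 after a gene's start, were matched by symbol for 47 of the 56 members. No window was matched for *Wdr36*, *Rrs1*, *Rrp12*, *Npm1*, *Bop1*, *Gnl2*, *Tbl3*, *Utp6* and *Fbl*, so the comparisons of windows below lack these members. The windows of 10 members held CACGTG (21.3%), against 13.1% of the 5217 genes that have a window and averaged 1000 or more normalized counts, and 8.09% of all 27025 genes with a window. CACGTG reads the same on both strands, and a match is a description of letters only. The variant CACGCG, or its reverse complement CGCGTG, stood in the windows of 14 members (29.8%), against 22.4% of those 5217 genes and 10.5% of all genes. The stretches around the 10 CACGTG matches follow on the gene's strand with the motif in capitals, ordered from the most negative log2 fold change to the least.
Pes1: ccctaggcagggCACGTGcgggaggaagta
Imp4: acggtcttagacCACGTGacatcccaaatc
Wdr46: aagggagtttcgCACGTGgatcgttgttcg
Utp4: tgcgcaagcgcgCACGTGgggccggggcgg
Nop2: gtgtccctggatCACGTGtgttccggtgcc
Wdr43: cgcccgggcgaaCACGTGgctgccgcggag
Utp20: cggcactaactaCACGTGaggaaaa
Ltv1: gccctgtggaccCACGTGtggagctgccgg
Tsr1: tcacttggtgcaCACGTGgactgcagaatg
Utp18: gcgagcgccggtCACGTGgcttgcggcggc

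In *Pes1* (chr11:3963965-3963994, plus strand) the motif began 2 bases after the start base, and in *Imp4* (chr1:34439696-34439725, plus strand) 121 bases before it. The stretch in *Nop2* (chr6:125131811-125131840, plus strand) lay 60 bases before the start, and the matches of *Wdr46* (chr17:33940699-33940728) and *Utp18* (chr11:93885769-93885798, minus strand) lay 12 and 20 bases before it. The other 5 matches lay 15 to 37 bases after the start. These 10 members had log2 fold changes of -0.52 to -0.12 with a median of -0.33, and the 37 members whose windows lack the letters had -0.93 to -0.08 with a median of -0.31, so the 2 sets overlapped widely. Of *Nhp2* and *Rrp1b*, the members with the most negative log2 fold changes after *Wdr36*, neither had CACGTG in its windows. The window of *Nhp2* (chr11:51619523-51619822, plus strand) is shown with its single CGCGTG in capitals, which is the reverse complement of the variant motif.
Nhp2: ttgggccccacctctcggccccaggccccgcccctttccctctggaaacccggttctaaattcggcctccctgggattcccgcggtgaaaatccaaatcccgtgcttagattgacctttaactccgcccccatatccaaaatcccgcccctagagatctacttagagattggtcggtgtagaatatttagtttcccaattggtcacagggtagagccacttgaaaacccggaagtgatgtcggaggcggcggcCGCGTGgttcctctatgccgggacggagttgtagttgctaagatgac

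All 56 members had a lower mean in hnRNPL-deficient than in WT cells on the log2(normalized count + 1) scale. Over the 17640 genes tested, which averaged 10 or more normalized counts, 52.7% were lower. Every member averaged 1000 or more, and of the 7102 genes in that range 61.1% were lower. The median log2 fold change of the members was -0.32, with the middle 50% between -0.39 and -0.24, against a median of -0.03 over all genes tested and -0.08 over the 7102 abundant genes. The median member stood at 80.2% of its WT mean. In these bulk libraries, fewer cells of a type and less RNA per cell cannot be told apart.

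**Figure D1:**
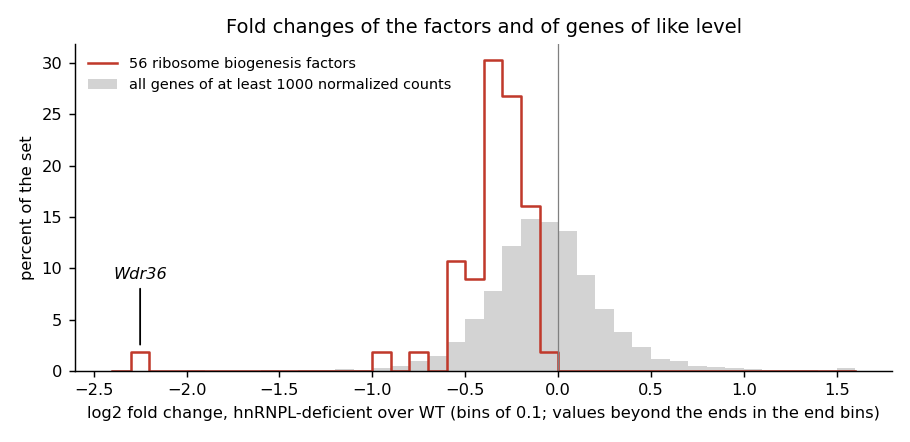
Share of genes (percent of the set, vertical axis) in bins of log2 fold change, hnRNPL-deficient over WT (horizontal axis), for the 56 ribosome biogenesis factors (red line) and all 7102 genes averaging 1000 or more normalized counts (grey bars). The members lie left of 0 in a narrow band around -0.32, with *Wdr36* alone at -2.20.

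At the thresholds of the study, which are an adjusted p (Benjamini-Hochberg) under 0.1 together with a 1.5-fold difference, 3 of 56 members were lower (5.36%), namely *Wdr36*, *Nhp2* and *Rrp1b*, against 4.08% of all genes tested and 3.77% of those averaging 1000 or more normalized counts. Without *Wdr36*, which was chosen for its level here, it was 2 of 55 (3.64%). No member was higher, against 7.28% of all genes tested and 2.65% of the same abundant genes, and none was higher at an unadjusted p under 0.05 either, since all 56 lay below WT. The share past the 1.5-fold minimum was thus close to that of all genes. Without regard to fold, 25 of 56 members (44.6%) had an adjusted p under 0.1 from limma and a lower level, against 7.97% of all genes tested and 12.4% of the abundant ones. Without *Wdr36* these were 24 of 55 (43.6%). None was higher in this way, against 10.0% of all genes tested and 7.36% of the abundant ones. In 37 members (66.1%) the highest hnRNPL-deficient library lay under the lowest WT library, against 16.3% of all genes and 23.2% of the abundant ones, and without *Wdr36* this held for 36 of 55. No member lay above WT without overlap, against 17.7% and 13.7%. Leaving out 1 library moved the count of 25 to 14 (without WT library 1), 7 (WT library 2), 10 (WT library 3), 9 (hnRNPL-deficient library 1), 21 (hnRNPL-deficient library 2) and 14 (hnRNPL-deficient library 3), and the count of 3 to 6, 3, 5, 5, 7 and 3 in the same order, with all 56 members lower in each of these fits. The share of all genes tested also dropped in those fits, to 6.03, 3.86, 3.83, 5.54, 5.64 and 5.68% lower at an adjusted p under 0.1, and to 2.74 to 3.94% past both thresholds. Apart from *Wdr36*, 6 members kept an adjusted p under 0.1 in every one of those 6 fits, namely *Nhp2*, *Rrp1b*, *Rrs1*, *Nip7*, *Pes1* and *Imp4*, and the other 18 lost it in 2 or more.

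**Figure D2:**
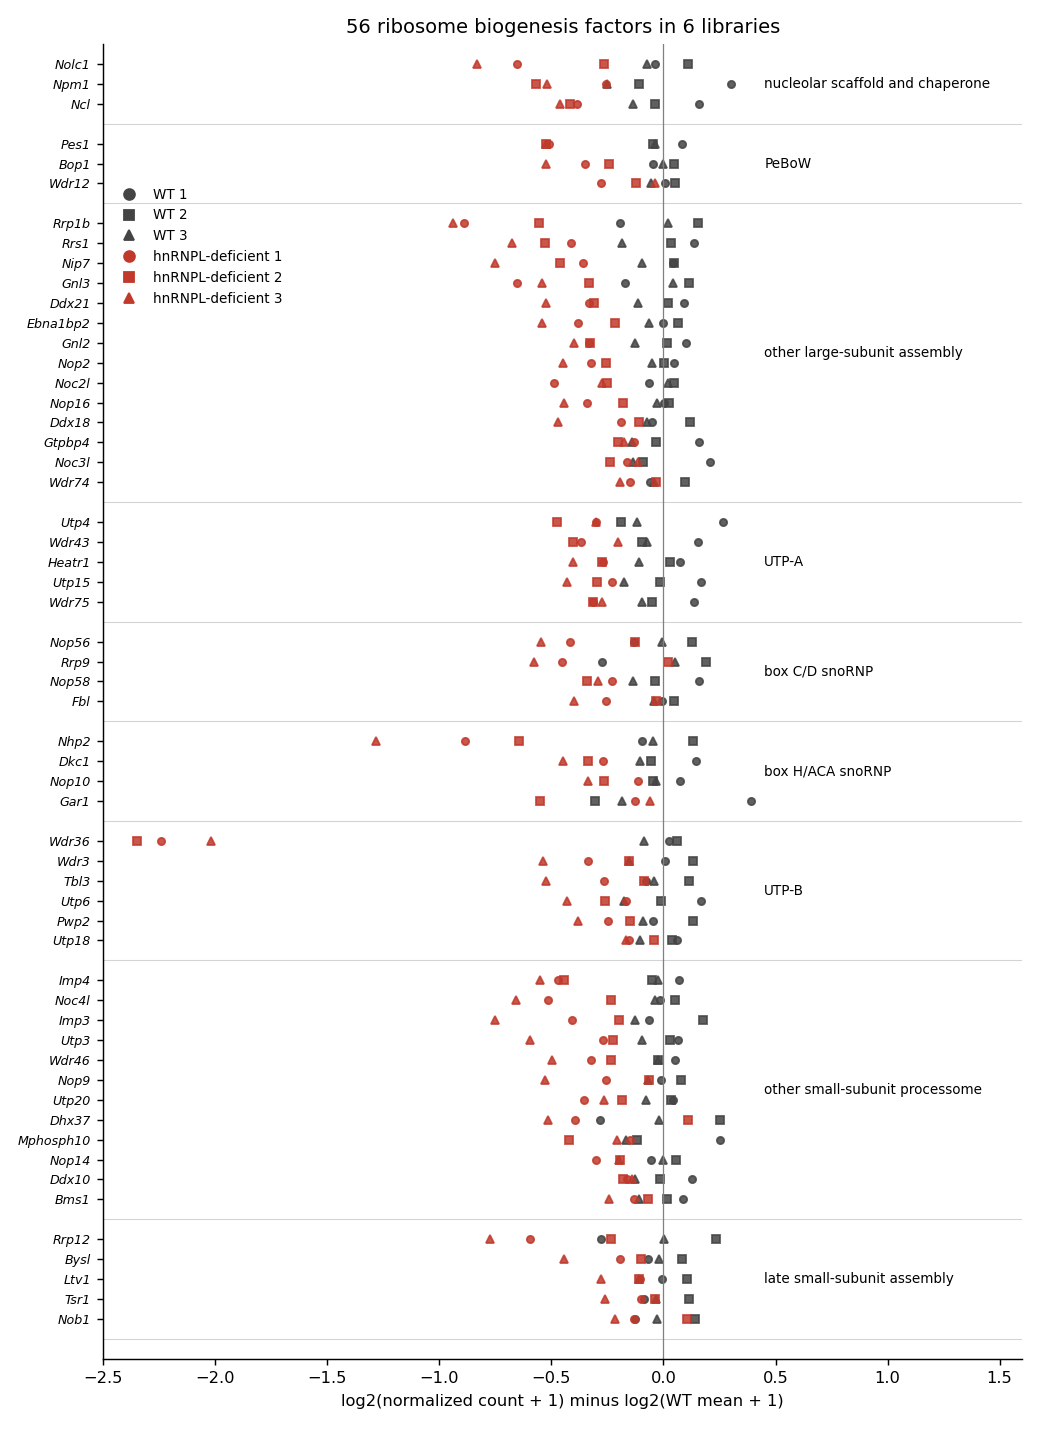
Level of each of the 56 members in each of the 6 libraries, as log2 of the normalized count over the WT mean (horizontal axis), grouped by role and ordered by log2 fold change within a role. The + 1 in the axis label was not applied to these values. The grey WT symbols scatter around 0 and the red hnRNPL-deficient symbols lie mostly to the left, with hnRNPL-deficient library 3 (triangles) often the lowest.

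*Wdr36* encodes a WD40-repeat subunit of UTP-B, the homologue of yeast Utp21. WT libraries held 9108, 9321 and 8419 normalized counts of it, and hnRNPL-deficient libraries 1892, 1758 and 2209. The WT values had a coefficient of variation of 5.27%, and the highest hnRNPL-deficient value was far under the lowest WT value. The means were 8949 ± 471 and 1953 ± 232 (SD, n = 3 each), which left 21.8% of the WT mean and gave a log2 fold change of -2.20. Ordered from the most negative value, it took place 27 among the 17640 genes tested and place 8 among the 7102 abundant genes. The next member, *Nhp2*, had -0.93, so *Wdr36* differed from it by -1.27 on the log2 scale, while the 55 other members had a median of -0.32 with an SD of 0.16 across genes. Over the 17 alternative fits the value of *Wdr36* ran from -2.29 to -2.09.

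The other 5 UTP-B subunits form a stable complex with WDR36 that binds the start of the precursor RNA. *Wdr3* (yeast Utp12) had 4878, 5316 and 4354 normalized counts in WT and 3842, 4358 and 3343 in hnRNPL-deficient cells. *Tbl3* (yeast Utp13) had 3049, 3479 and 3129 against 2681, 3032 and 2240. *Pwp2* (yeast Utp1) had 4309, 4879 and 4181 against 3751, 4017 and 3420. In *Tbl3* and *Pwp2* the groups did not overlap, and in *Wdr3* they overlapped by hnRNPL-deficient library 2 and WT library 3, which nearly coincided. *Utp6* had 7912, 6973 and 6226 against 6275, 5865 and 5224, and *Utp18* had 4058, 4001 and 3613 against 3496, 3780 and 3466, with overlap in both. Their log2 fold changes ran from -0.34 (*Wdr3*) to -0.12 (*Utp18*), and none of the 5 passed an adjusted p of 0.1, with 0.127 the smallest (*Wdr3*, limma).

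Divided by the length of all exons of a gene, *Wdr36* stood at 972 to 1076 normalized counts per kb in the WT libraries, inside the range of the other subunits, whose lowest (*Tbl3*) had 536 to 612 and whose highest (*Utp6*) 1378 to 1752. In hnRNPL-deficient libraries it stood at 203 to 255 per kb, under *Tbl3* at 394 to 533. The order of the WT means per kb was *Utp6* (1558), *Pwp2* (1151), *Utp18* (1082), *Wdr36* (1033), *Wdr3* (929) and *Tbl3* (566), in which the libraries of *Pwp2* and *Utp18*, of *Utp18* and *Wdr36*, and of *Wdr36* and *Wdr3* overlapped, while *Utp6* and *Tbl3* stood clear of their neighbours. That order depends on the length used. All exons of *Wdr36* make up 8663 bases and its principal transcript 4455, against 4517 and 3877 for *Utp6*. Per kb of the principal transcript, *Wdr36* had the highest WT mean of these subunits. As a share of the summed UTP-B level per kb of all exons, *Wdr36* made up 16.1, 16.2 and 16.7% in WT and 4.59, 4.09 and 5.94% in hnRNPL-deficient libraries. A share within a library does not depend on how libraries were scaled to each other. Its size depends on the length used, being 27.3 to 28.1% against 7.71 to 11.1% with no division by length and 23.3 to 24.1% against 6.32 to 9.09% with the length of the principal transcript, and in each case the groups were far apart.

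**Figure D3:**
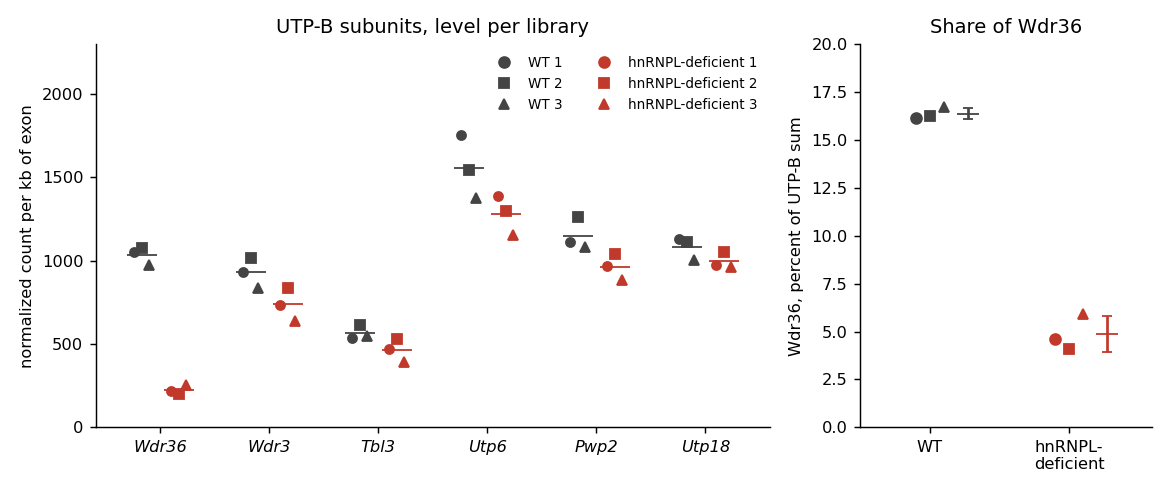
Left, normalized count per kb of exon of each UTP-B subunit in each library (symbols, lines mark group means). Right, *Wdr36* as percent of the summed UTP-B level per kb in each library, with group mean and SD beside the symbols. *Wdr36* made up 16.1 to 16.7% of the sum in WT and 4.09 to 5.94% in hnRNPL-deficient libraries, while the other 5 subunits stayed at 394 or more per kb.

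The tested genes on either side of *Wdr36*, *Gypc* and *Stard4*, were also lower. *Gypc*, which encodes glycophorin C, had 6948, 6209 and 5612 normalized counts in WT and 3976, 3951 and 3791 without hnRNPL (log2 fold change -0.67, adjusted p = 0.00591, limma). *Stard4*, a sterol transfer protein gene, had 7073, 6059 and 5577 against 4381, 3887 and 4189, with -0.58 (adjusted p = 0.0151). Both were lower without overlap, by much less than *Wdr36*, and kept an adjusted p under 0.1 whichever library was left out. *Bin1* and *Ercc3*, the next genes on one side, had -0.23 and -0.02 with adjusted p of 0.527 and 0.935. On the other side *Gm5503* and *Epb41l4aos* had 0.35 and -0.41, with adjusted p of 0.551 and 0.217.

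Among the other early small-subunit complexes, all 5 UTP-A members were lower without overlap between the groups, with log2 fold changes in a narrow range from -0.34 to -0.30. UTP-A is the first complex to bind the precursor RNA and also supports its transcription. *Heatr1* (yeast Utp10), its most abundant member, had 21314, 20660 and 18760 normalized counts in WT and 16811, 16754 and 15303 in hnRNPL-deficient cells (-0.31, adjusted p = 0.0721, limma). *Wdr43* and *Wdr75* also passed an adjusted p of 0.1 (0.0949 and 0.0815), and *Utp4* and *Utp15* did not (0.135 and 0.120). *Heatr1* and *Wdr75* lost it whichever of the 6 libraries was left out, and *Wdr43* in 5 of the 6 fits.

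Box C/D snoRNPs carry the guide RNAs for 2′-O-methylation and, as U3, take part in cutting the precursor. *Nop58*, a core protein, had 19945, 17374 and 16229 normalized counts in WT and 15207, 14099 and 14559 in hnRNPL-deficient cells, with no overlap (-0.28, adjusted p = 0.121). *Nop56*, *Fbl*, the methyltransferase fibrillarin, and *Rrp9*, a U3 protein, had -0.36, -0.23 and -0.32 with overlapping groups, so 0 of 4 members passed an adjusted p of 0.1 in limma.

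Box H/ACA snoRNPs guide pseudouridylation and include the proteins of telomerase RNA. *Nhp2*, which contacts the guide RNA, had 3514, 4117 and 3639 normalized counts in WT and 2035, 2402 and 1545 in hnRNPL-deficient cells. The groups did not overlap, and hnRNPL-deficient library 3 was the lowest. Its log2 fold change of -0.93 (SE 0.16, adjusted p = 0.00931, limma) was the largest after *Wdr36* and kept its call in all 17 alternatives, with an adjusted p of at most 0.0406. *Dkc1*, the pseudouridine synthase dyskerin and the most abundant of the 4, had 16194, 14079 and 13606 against 12128, 11574 and 10705, with no overlap (-0.35, adjusted p = 0.0652), and passed in no fit that left out a library. *Nop10* (-0.24) and *Gar1* (-0.21) did not pass, and *Gar1* overlapped widely, with 8905, 5506 and 5976 against 6230, 4633 and 6508. *Nhp2* made up 15.4 to 20.7% of the H/ACA sum per kb in WT and 9.95 to 15.3% in hnRNPL-deficient libraries, ranges that almost met.

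The 3 abundant nucleolar scaffolds and chaperones had the lowest median of any role group, -0.43. *Npm1*, the histone chaperone and nucleolar scaffold nucleophosmin, was the highest member of all, with 199100, 149802 and 135453 normalized counts in WT and 135327, 108701 and 112630 in hnRNPL-deficient cells. Its groups nearly touched between WT library 3 and hnRNPL-deficient library 1, and with -0.43 and an adjusted p of 0.144 it did not pass. *Ncl*, nucleolin, had 151494, 131984 and 123360 against 103897, 101593 and 98348 (-0.42, adjusted p = 0.0589), and likewise passed in none of the 6 fits without a library. *Nolc1*, the snoRNP chaperone Nopp140, had 13145, 14565 and 12820 against 8585, 11247 and 7592. Its log2 fold change of -0.58 (adjusted p = 0.0376) lay just under the 1.5-fold minimum of 0.585, which makes it the nearest member outside that limit, with *Rrp1b* at -0.79 the nearest inside. *Nolc1* lost its adjusted p without WT library 2 or hnRNPL-deficient library 1.

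Of the 12 other members of the small-subunit processome, 4 passed an adjusted p of 0.1 (*Imp4*, *Noc4l*, *Utp3* and *Wdr46*). *Imp4*, a U3-associated factor that helps U3 pair with the precursor, had 8653, 7966 and 8115 normalized counts in WT and 5940, 6060 and 5628 in hnRNPL-deficient cells (-0.49, adjusted p = 0.0111), and the groups did not overlap. *Utp20*, a very large scaffold protein and the most abundant of these, had 17214, 17117 and 15874 against 13099, 14714 and 13937, also with no overlap (-0.27, adjusted p = 0.103). *Bms1*, the GTPase of the processome, had 10219, 9726 and 8901 against 8786, 9171 and 8114, with overlap (-0.15, adjusted p = 0.375).

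The factors that act late on the small subunit had the smallest median of the role groups, -0.16. Only 1 of the 5 had an adjusted p under 0.1, *Rrp12*, an export factor (-0.52, adjusted p = 0.0887, limma). *Rrp12* missed that limit without WT library 2 or 3 or hnRNPL-deficient library 1 or 3. *Tsr1*, a GTPase-like factor on the pre-40S particle, had 6678, 7667 and 6942 normalized counts in WT and 6614, 6918 and 5928 in hnRNPL-deficient cells (-0.13, adjusted p = 0.448). *Nob1*, the endonuclease that makes the end of 18S rRNA, had 2005, 2415 and 2146 against 2000, 2352 and 1886 (-0.08, adjusted p = 0.728), the smallest difference of all 56. The groups overlapped in both genes.

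Of the 14 other large-subunit factors, 10 were lower at an adjusted p under 0.1 and 1, *Rrp1b*, passed both thresholds, with a median of -0.35. *Rrp1b*, a nucleolar protein of the large-subunit particle, had 8715, 11084 and 10090 normalized counts in WT and 5381, 6782 and 5200 in hnRNPL-deficient cells, with no overlap. Its log2 fold change was -0.79 (SE 0.13, adjusted p = 0.00904, limma), and it kept the 1.5-fold call in all 17 alternatives, with an adjusted p of at most 0.0452. *Rrs1*, which helps to bring 5S RNA into the particle, had 4299, 4000 and 3438 against 2936, 2712 and 2451 (-0.53, adjusted p = 0.0252). *Nip7* (-0.52) and *Gnl3*, the GTPase nucleostemin (-0.50), followed it with adjusted p of 0.0285 and 0.0314, of which *Gnl3* did not pass without WT library 2 or 3. *Ddx21*, an RNA helicase and the most abundant of the 14, had 37821, 35996 and 32816 against 28242, 28663 and 24713 (-0.39, adjusted p = 0.0512). Its adjusted p was not under 0.1 without WT library 1 or 2 or hnRNPL-deficient library 3. *Wdr74* had the smallest difference of the 14, with 2485, 2764 and 2511 against 2330, 2530 and 2263 (-0.12, adjusted p = 0.464) and overlapping groups.

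PeBoW, the complex of PES1, BOP1 and WDR12 that is needed for the 28S and 5.8S precursors, showed unequal differences among its 3 members. *Pes1* had 14172, 12946 and 13030 normalized counts in WT and 9399, 9304 and 9307 in hnRNPL-deficient cells, so the 3 hnRNPL-deficient values almost coincided and lay well under WT (-0.52, adjusted p = 0.00806, limma), with an adjusted p under 0.1 kept in all 17 alternatives. *Bop1* had 7482, 8005 and 7727 against 6063, 6531 and 5381 (-0.37, adjusted p = 0.0485), and did not pass without WT library 2 or 3 or hnRNPL-deficient library 1. *Wdr12* had 4058, 4187 and 3891 against 3336, 3710 and 3936, with overlap (-0.15, adjusted p = 0.380). Whether these members differ from each other in their change was not tested.

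The members differed between libraries of 1 group in a shared way. Leaving *Wdr36* aside, the median of the 55 members lay at 0.04, 0.04 and -0.08 (log2, relative to the WT mean) in the WT libraries and at -0.30, -0.24 and -0.45 in the hnRNPL-deficient ones, with all 3 hnRNPL-deficient libraries under all 3 WT libraries. hnRNPL-deficient library 3, the shallowest, was the lowest of its group for 39 of the 55 members and library 2 the highest for 34, while *Wdr36* had its highest hnRNPL-deficient value in library 3. In WT, library 3 was the lowest for 34 members. The 56 members together made up 1.29, 1.22 and 1.17% of all reads on genes in WT and 0.987, 0.979 and 0.969% in hnRNPL-deficient libraries, which did not overlap. Part of the within-group differences followed the base composition of the genes. Across the 55 genes, which share libraries and are not independent, the difference of hnRNPL-deficient library 2 from the other 2 of its group rose with exonic GC content (Pearson r = 0.60, Spearman rho = 0.68), that of WT library 1 fell with it (-0.55 and -0.61), and the 2 differences were inversely related (-0.90 and -0.88). The log2 fold change between groups had r = -0.28 with GC content, -0.14 with the WT mean and 0.12 with exon length. With each library corrected for GC content and length, all 56 members stayed lower, and their median was -0.34.

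Some of the members also host snoRNAs, the RNAs that box C/D and box H/ACA proteins carry. In GENCODE annotation, 7 of 56 members (12.5%), *Gnl3*, *Ncl*, *Nop56*, *Nop58*, *Dkc1*, *Wdr43* and *Tsr1*, hold 21 annotated snoRNAs within their bounds, against 1.48% of all genes tested and 2.76% of protein-coding genes averaging 1000 or more normalized counts. Host genes had a median log2 fold change of -0.35 and the 48 other members without *Wdr36* -0.31, and the snoRNAs themselves are not polyadenylated and were not analysed here. The exons of *Ncl* overlap the microRNA gene mmu-mir-3535 on the same strand. Hosted snoRNAs aside, no other member has exons that overlap those of another gene on its strand. Other genes lying wholly within introns were not looked for.

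The other genes of the pathway were given the same comparison. Of 91 further ribosome assembly factors, 84 were lower, 1 passed both thresholds (1.10%) and none was higher, and 24 were lower at an adjusted p under 0.1 (26.4%). The 1 called, *Pih1d1*, a subunit of the R2TP chaperone complex that assembles snoRNPs, had 512, 688 and 621 normalized counts in WT and 328, 419 and 314 in hnRNPL-deficient cells, with no overlap (-0.78, adjusted p = 0.0266, limma), a call lost without WT library 3 (0.104). The number called lower was 2, 5 and 4 without WT library 1, 2 and 3, and 3, 3 and 2 without hnRNPL-deficient library 1, 2 and 3. The median over the 91 was -0.25, between that of the 56 members and that of all genes. RNA polymerase I machinery had a median of -0.08 over 14 genes, and 4 were lower at an adjusted p under 0.1, namely *Cd3eap* (-0.53), *Ubtf* (-0.45), *Polr1c* (-0.44) and *Polr1b* (-0.42), while *Taf1d* was higher (0.30, adjusted p = 0.0848). Each of these 5 missed an adjusted p of 0.1 in 2 or more of the 6 fits without a library, among them, for the 4 lower genes, the fit without WT library 2. The 84 cytosolic ribosomal protein genes tested had a median of -0.14, with 80 lower, 2 lower at an adjusted p under 0.1 and 1 of these, *Rpl22l1*, past both thresholds (-1.32, adjusted p = 0.00262). The 76 mitochondrial ribosomal protein genes, whose products are assembled in another compartment, had a median of -0.07. Differences between these lists were not tested.

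**Figure D4:**
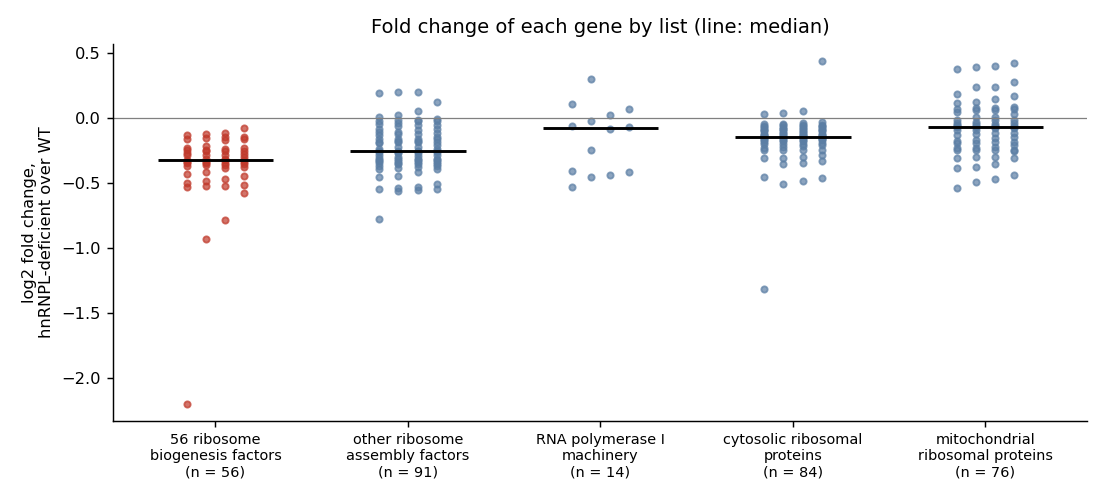
Log2 fold change of each gene, hnRNPL-deficient over WT (vertical axis), for the 56 members and 4 related lists, with the median of each list as a line. The medians are -0.32, -0.25, -0.08, -0.14 and -0.07 from left to right, and *Wdr36* at -2.20 is the lowest point of all 5 lists.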

How the data were processed

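RNA-seq of 3 WT and 3 hnRNPL-deficient samples of activated splenic B cells was analysed, grouped by the labels. The authors trimmed reads with fastp 0.23.1, aligned them to mm10 with STAR 2.7.9a, counted them strand-specifically per gene with featureCounts and GENCODE vM23, and divided the counts by DESeq2 1.38.2 size factors. These normalized counts, a non-integer signal, were deposited with 1 column per sample. The deposited table also holds results of the authors' DESeq2 test (log2 fold changes with standard errors, a test statistic or score, and p-values), which were not used.

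The 17640 genes averaging 10 or more normalized counts were tested on log2(normalized count + 1) with limma 3.58.1 (R 4.3.3), using a mean-variance trend, no covariate and Benjamini-Hochberg adjustment over all genes tested. The script was tested on simulated data. Thresholds were those of the study, an adjusted p under 0.1 and at least 1.5-fold. Members, roles, related lists and marker lists (B cell, T cell, myeloid, plasma cell, erythroid) were chosen with earlier results of these data known. One marker of the erythroid list is not reported here and was left out of its sum. Values in every library are given for *Wdr36* and the other 5 UTP-B members, every member past both thresholds, the 5 largest and 5 smallest falls, and the most abundant member of each role, and a few more members (*Ncl*, *Imp4*, *Bop1*, *Wdr12* and *Gar1*) were named after their values were seen. Exon lengths, GC content and overlaps came from GENCODE annotation of GRCm38, to which all 56 members were matched by gene ID (17615 of the 17640 genes tested). The study gives 3 mice per group for this RNA-seq, and the labels do not say which mouse gave which library. Divided by the smallest value above 0 of its library, 100% of values came out whole (tolerance 0.01) in all 6 libraries, which gives back read counts. The automatic test for whole reads did not accept hnRNPL-deficient library 2, whose smallest value is 1.01, although its values are exact multiples too. So edgeR 4.0.16 and DESeq2 1.42.0 were run as alternatives on the 5 other libraries, which was chosen after seeing the data.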

Additional observations from a re-analysis of the deposited data

How the results depend on the processing

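The 56 members stayed lower than WT in every one of the 17 alternative fits, and no member was called higher in any of them. The number called lower, 3, became 6 with a correction for GC content and length, 5 with edgeR and 5 with DESeq2 (both on 5 libraries), and 3 to 7 without 1 library. The number lower at an adjusted p under 0.1 whatever the fold, 25 (7.97% of all genes tested), became 14 with quantile normalization (8.02% of all genes), 9 with no mean-variance trend (5.84%), 47 with the correction for GC content and length (12.4%), and 7 to 21 without 1 library (3.83 to 6.03%). On 5 libraries it was 19 with edgeR (5.24%) and 29 with DESeq2 (7.5%). Scaling libraries to equal totals gave 21 (7.13%), no filter on low values 17 (3.83%) and a minimum mean of 50 gave 26 (9.68%). Quantile normalization moved the median log2 fold change of the members from -0.32 to -0.21. Of the further assembly factors, 1 was called lower, against 5 with the correction for GC content and length, 2 with edgeR, 3 with DESeq2 and 2 to 5 without 1 library. The share of *Wdr36* in UTP-B was lower by 11.5 percentage points per kb of exon in hnRNPL-deficient cells (-11.5), by 18.5 with no division by length (-18.5) and by 16.2 with the principal transcript (-16.2). The GC correction, edgeR, DESeq2 and the principal transcript length were chosen after seeing the data, and the cause of these changes was not tested.

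Libraries with the same number had deviations from their group means that correlated by 0.429, 0.320 and 0.0663. Each hnRNPL-deficient library correlated best with the WT library of its number, though library 3 hardly more than with WT library 1 (0.0501). WT libraries 1 and 2 did likewise, while WT library 3 correlated more with hnRNPL-deficient library 2 (0.305). The labels do not name pairs, and the numbers were not taken to pair the samples. With the replicate number as a block, 3 members were called lower and 44 were lower at an adjusted p under 0.1, against 16.5% of all genes in that fit. Most members differed by less than 1.5-fold, and with 3 libraries a group the number that passed an adjusted p of 0.1 depended on the library left out.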
